A study of Homo sapiens with 18 samples.

Results

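The RNAs described here are the small nucleolar RNAs (snoRNAs) and small Cajal body RNAs (scaRNAs) with at least 1000 reads summed over all 18 libraries of an RNA-seq series from human HEK293T embryonic kidney cells. Of 60675 human gene rows, 992 carried the type snoRNA or scaRNA, and 95 of them reached 1000 counts, 373 had no count and 524 had at least 1 but did not reach it. By symbol, 42 members were SNORD genes (box C/D), 36 were SNORA genes (box H/ACA), 11 were SCARNA genes and 6 had other names. Members were chosen by their summed counts and their annotated type, with SCARNA1 (1041 counts) and SNORA59B (1032) just inside the threshold and SNORA59A (995) and SNORA63 (970.0) just outside. The 95 rows stand for 92 separate loci, because SNORD3D, SNORA17B and SNORA50C each have 2 rows over the same bases.

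Cells carried YTHDF1, YTHDF2 or YTHDF3 fused to the deaminase ADAR, which converts adenosine near the bound site and thereby marks RNAs that the m6A-binding YTHDF protein has met. All groups received 1 µg/mL doxycycline for 24 h to switch the fusion on and 100 µg/mL cycloheximide for 10 min, which holds ribosomes on mRNA. Each line was sequenced as total RNA and as RNA from pooled polysome fractions of a sucrose gradient, in 3 libraries per group, with ribosomal RNA depleted and a directional kit. No group without a fusion was analysed here, and whether a line is 1 clone and whether its libraries are separate cultures is not stated, so the p-values measure only the spread between these libraries, which may be technical.

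Box C/D snoRNAs guide 2'-O-methylation and box H/ACA snoRNAs guide pseudouridylation, mostly of ribosomal RNA in the nucleolus. A few, such as U3, U8 and U17, are needed instead to cut and fold the ribosomal precursor. The scaRNAs guide the same modifications on spliceosomal RNAs in Cajal bodies. Most human snoRNAs are cut out of introns of host genes, while U3, U8 and U13 have promoters of their own. Mature snoRNAs reside in the nucleus and are not translated, so their level in polysome RNA against total RNA was the main comparison.

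For 2 H/ACA members, RefSeq (GRCh38.p14) lists a miRNA hairpin at the 3' end of the snoRNA itself. These hairpins are shown because they carry the ACA box that defines the class and because results turn on both members. SCARNA16 has the strongest mean polysome depletion among the SCARNA genes. The polysome change of SNORA84 differs most between lines, although that difference did not pass the test over all libraries. Capitals mark the ACA triplet, which in both ends 3 bases before the 3' end of the member.
MIR6516 hairpin, chr17:77089417-77089497, plus strand, in SCARNA16: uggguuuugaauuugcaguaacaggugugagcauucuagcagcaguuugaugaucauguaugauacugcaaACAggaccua
MIR3651 hairpin, chr9:92292458-92292547, minus strand, in SNORA84: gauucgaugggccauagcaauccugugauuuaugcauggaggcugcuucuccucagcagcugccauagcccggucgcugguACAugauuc
The MIR6516 hairpin runs 4 bases past the end of SCARNA16 and the MIR3651 hairpin 3 bases past the end of SNORA84. The rows of both miRNAs held nearly the reads of the snoRNAs, 12534 counts for MIR6516 beside 13140 for SCARNA16 and 1375 for MIR3651 beside 1410 for SNORA84, so a read was counted in each row it overlapped. RefSeq gives these mature miRNAs, with the seed (bases 2 to 8) in capitals.
hsa-miR-6516-5p: uUUGCAGUaacaggugugagca
hsa-miR-6516-3p: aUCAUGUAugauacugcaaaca
hsa-miR-3651: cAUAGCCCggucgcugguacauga
The 3 seeds differ from one another, and the libraries do not separate a mature miRNA from the snoRNA around it.

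Libraries held from 42699303 to 67549159 counts, and all 95 members were among the 26804 genes kept by the filter on low counts. Transcripts of the fused proteins matched the labels, with YTHDF1 at 392 in its own line against 83.2 and 68.05 in the others, in CPM, which scale each library to the same total. YTHDF2 stood at 275 against 147 and 129 CPM, and YTHDF3 at 76.7 against 55.5 and 51.3, all in total RNA. Markers of the HEK293 line were present, among them the neurofilament genes NEFM (414593 summed counts) and NEFL (172168), while 5 markers of blood, liver, endothelial and connective tissue cells were low (PTPRC 18, PECAM1 43, ALB 51, HBB 176, COL3A1 364). These 5 summed to 0.3 to 0.55 CPM in YTHDF1-ADAR, 0.365 to 0.684 in YTHDF2-ADAR and 0.82 to 1.74 in YTHDF3-ADAR total RNA, and to 0.262 to 0.348, 0.396 to 0.438 and 0.955 to 1.42 CPM in polysome RNA. Libraries numbered 1 stood apart in 4 groups, with a chi-square per df against their sister libraries of 167 and 217 (YTHDF1-ADAR total RNA), 76.2 and 57.4 (YTHDF2-ADAR total RNA), 143 and 137 (YTHDF3-ADAR total RNA) and 131 and 127 (YTHDF3-ADAR polysome RNA). The remaining pairs in these groups gave 28.3, 6.96, 16.9 and 41.0. Results that rest on these libraries are given with and without them.

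Members held 90.7% of all snoRNA and scaRNA counts, and the 10 highest held 68.2%. The U3 gene SNORD3A led with 140583 summed counts, followed by SCARNA2 with 127174, while the median member had 2300. The SCARNA genes were the longest members (median 270.0 bases), followed by SNORA (135) and SNORD (86). Exons of a host, a gene over the member with at least 20% of its reads outside members, overlapped 59 members, 26 lay only in introns of a host and 10 had no host. Of the latter 36, 7 shared bases with exons of a lncRNA row, 5 of them without a host. Exons of every annotated transcript were used, so a member that is intronic in some transcripts of its host can count as overlapping exons. Summed over the 5 SNORD3 loci, U3 stood at 777, 889.7 and 546 CPM in the 3 total RNA libraries of YTHDF1-ADAR cells, 810.0, 519 and 610.1 in those of YTHDF2-ADAR and 1099, 532 and 464 in those of YTHDF3-ADAR. In polysome RNA the same sums were 132, 161 and 127, then 127, 90.3 and 122, then 136, 117 and 141 CPM. Every polysome library lay below every total RNA library, and U3 outweighed the other 36 SNORD members together in all total RNA libraries. Those 36 summed to between 126 and 185 CPM in total RNA and between 44.6 and 81.6 in polysome RNA.
SNORA50C was left out of the SNORA sums, because its bases are covered by the longer row ENSG00000281311, a member with another name. The remaining 34 SNORA loci summed to 187, 167 and 171 CPM in YTHDF1-ADAR total RNA and 65.7, 73.5 and 85.4 in the polysome RNA. In YTHDF2-ADAR cells the SNORA sums were 193, 172 and 177 against 77.8, 71.5 and 75.3 CPM. In YTHDF3-ADAR cells they were 174, 126 and 113 against 64.02, 96.2 and 122 CPM, the only class and line in which polysome and total RNA libraries overlapped. The 11 SCARNA genes summed to between 267 and 349 CPM in total RNA and between 127 and 235 in polysome RNA, without overlap in any line.

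**Figure D1:**
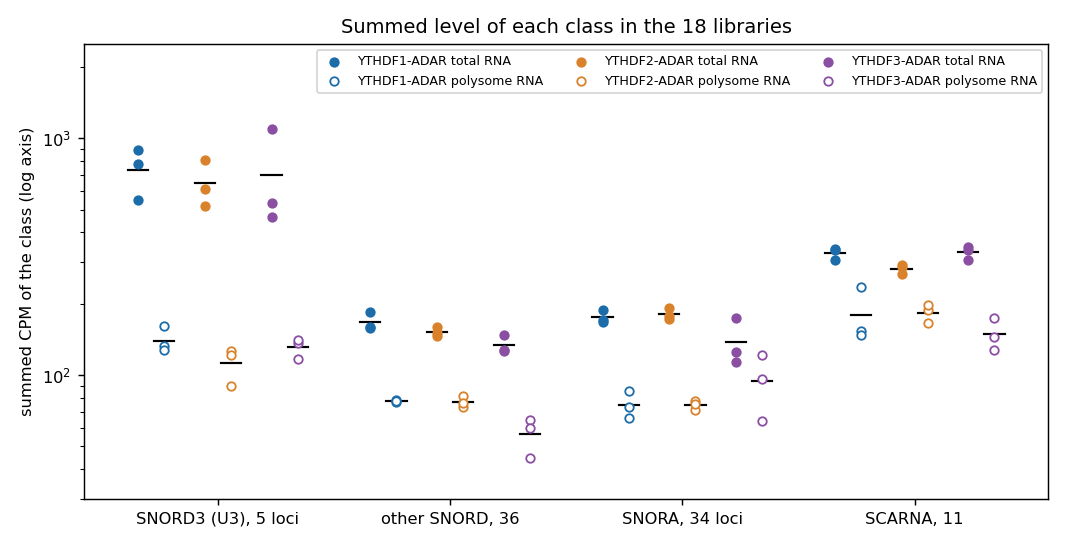
Summed CPM (log axis) of the U3 loci, the other SNORD members, the SNORA loci (without SNORA50C) and the SCARNA members in each library, for total and polysome RNA of the 3 lines. Each point is 1 library. Polysome points lie below total RNA points everywhere except for SNORA in YTHDF3-ADAR cells, where 1 polysome library, at 122 CPM, lies within the range of total RNA.

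Which snoRNAs and scaRNAs were depleted from polysomes was tested in each line. Of 95 members, 67 were lower in polysome than in total RNA in the YTHDF1-ADAR line, 64 in the YTHDF2-ADAR line and 63 in the YTHDF3-ADAR line, at a Benjamini-Hochberg adjusted p under 0.05 over all 26804 genes in edgeR's quasi-likelihood test. Among all genes, 11.9%, 9.04% and 12.1% were lower by the same rule. Higher in polysome RNA were 0, 0 and 4 members, against 9.26%, 6.71% and 8.01% of all genes. Without adjustment, p was under 0.05 for 70, 74 and 74 members in either direction, adjusted calls in either direction made up 21.2%, 15.8% and 20.1% of all genes, and DESeq2 called 0, 0 and 6 members higher. The median log2 fold change of members was -1.33, -1.28 and -1.28, beside 0.03, 0.03 and -0.05 over all genes. With no scaling factors, the medians of all genes moved to 0.46, 0.40 and 0.25. In that setting 53, 52 and 57 members were called lower, beside 5.7%, 5.09% and 6.22% of all genes. Called higher were 3, 3 and 10 members, beside 40.6%, 33.9% and 25.3% of all genes. In YTHDF3-ADAR cells, a fit of that line's 6 libraries alone called 18 members lower rather than 63 and 0 higher, beside 0.879% and 0% of all genes. Without total RNA library 1, 56 members were lower in the YTHDF1-ADAR line and 57 in the YTHDF2-ADAR line, beside 7.85% and 6.82% of all genes. All 3 polysome libraries lay below all 3 total RNA libraries for 72, 79 and 60 members, beside 22.3%, 21.5% and 15.2% of all genes. Called lower in all 3 lines were 55 members, beside 6.56% of all genes, and they comprised 30 SNORD, 17 SNORA, 4 SCARNA and 4 other members. Another 10 members were lower in 2 lines and 9 in 1, while 17 were called in no line, of which 6 were SNORD, 7 SNORA and 4 SCARNA. In bulk RNA, fewer cells holding a transcript and less transcript per cell cannot be told apart, and CPM in polysome RNA are relative to the other RNA of that fraction.

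By class, 31, 31 and 35 of 42 SNORD members were lower, with median log2 fold changes of -1.69, -1.39 and -1.86. Of 36 SNORA members, 25, 24 and 17 were lower, with medians of -1.20, -1.08 and -0.68. Of 11 SCARNA members, 5, 4 and 6 were lower, with medians of -0.74, -0.48 and -0.50. The 6 members with other names were lower 6, 5 and 5 times, with medians of -2.08, -1.95 and -1.65. Among these, ENSG00000281311 covers the bases of SNORA50C, which is also counted under SNORA here. SNORD medians thus were below those of SNORA and SCARNA in every line. The order of SNORA and SCARNA in YTHDF3-ADAR cells turned without both libraries 1 (SNORA -0.36, SCARNA -0.45), without polysome library 1 (-0.51 and -0.52) and among members that overlap no exon of a host (-0.21 and -0.70). Class and length go together, since 27 of the 31 members of at most 100 bases were SNORD, and how much each contributes was not tested. By position, the 10 members without a host had medians of -2.38, -2.51 and -2.33. The 59 overlapping an exon of any annotated host transcript had -1.30, -1.25 and -1.25, and the 26 only in host introns -1.21, -1.05 and -0.87. Most of the 10 were SNORD3 rows, near-identical copies of U3, so the first medians are largely those of U3. SCARNA2, also without a host, fell less in every line, and the part of position was not tested.

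**Figure D2:**
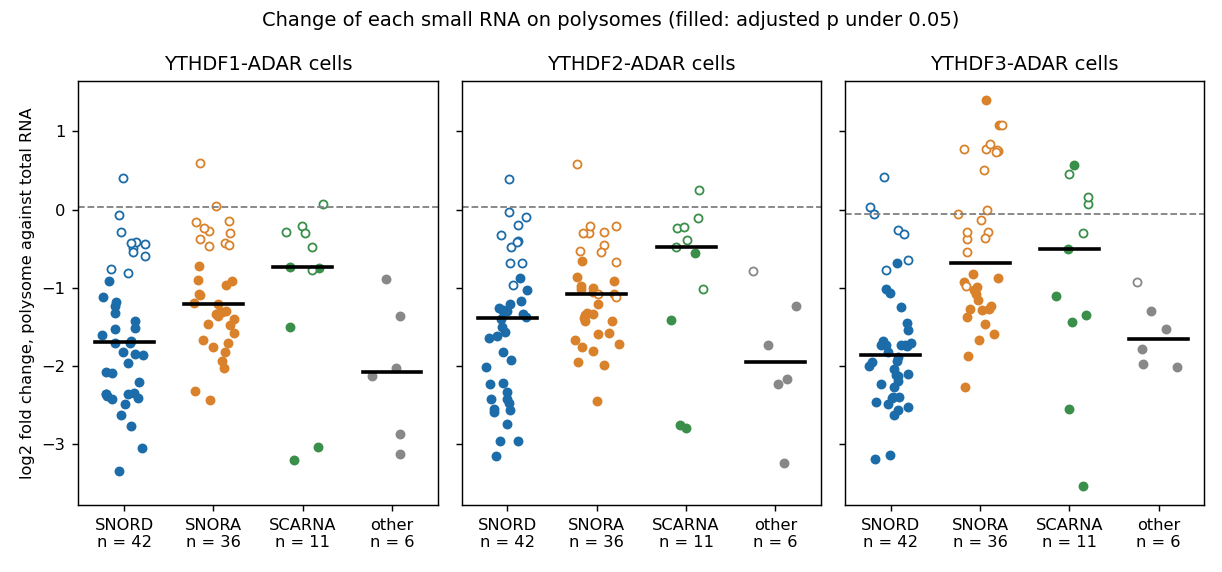
Log2 fold change of polysome against total RNA for each member, by class and line; filled points have an adjusted p under 0.05, bars mark the class median and the dashed line the median of all genes. Most SNORD points are filled and below 0 in the 3 lines, while SNORA points of YTHDF3-ADAR cells spread from below -2 to above 1 around their median of -0.68.

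U3 was among the most depleted members, but the processing RNAs differed widely among themselves. SNORD3A, a U3 gene without a host (chromosome 17, 19188016 to 19188714, plus strand), stood at 309.6, 339 and 214 CPM in YTHDF1-ADAR total RNA and 53.7, 64.3 and 50.9 in polysome RNA. In YTHDF2-ADAR cells it stood at 336, 209 and 254 against 53.4, 37.8 and 52.6 CPM. In YTHDF3-ADAR cells it stood at 412, 228 and 198 against 57.9, 53.5 and 62.5 CPM. Polysome libraries were far below total RNA libraries in all lines, and the first total RNA library of YTHDF3-ADAR cells was the highest of all. The level fell 5.11, 5.56 and 4.82-fold, or by a log2 fold change of -2.35 ± 0.26 (SE), -2.47 ± 0.26 and -2.27 ± 0.26, with adjusted p of 2.02e-05, 1.81e-05 and 3.43e-05 (edgeR). The other SNORD3 rows lay between -2.74 and -2.35, but U3 copies are nearly identical and the counting could split their reads, so the single loci are uncertain. The annotated row of SNORD3A spans 699 bases, whereas RefSeq gives 217 for the mature RNA. The row named U3 in an intron of TEX14 had -2.13, -2.23 and -2.01.

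U8, needed for maturation of the large subunit rRNAs, is SNORD118 (chromosome 17, 8173454 to 8173587, minus strand, overlapping TMEM107). For SNORD118, YTHDF1-ADAR total RNA held 8.95, 6.97 and 6.99 CPM and 1.26, 1.34 and 1.48 on polysomes. In YTHDF2-ADAR cells the values were 6.05, 5.38 and 5.61 against 0.964, 0.871 and 1.01 CPM. In YTHDF3-ADAR cells they were 5.51, 3.77 and 3.17 against 0.995, 2.34 and 2.55 CPM. Fractions did not overlap in any line, yet in YTHDF3-ADAR cells libraries 2 and 3 of polysome RNA came close to those of total RNA. U8 fell with log2 fold changes of -2.48 ± 0.28, -2.58 ± 0.28 and -1.07 ± 0.26 (adjusted p = 2.02e-05, 2.38e-05 and 0.00999, edgeR). The third value lost its call when both YTHDF3-ADAR libraries numbered 1 were left out. TMEM107 reads outside SNORD118 changed by -0.93, -0.64 and -0.32, and SNORD118 had at least 13.2 times the reads per base of its host in total RNA.

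U13 (SNORD13), which acts in acetylation of 18S rRNA, showed the lowest fold changes of the processing RNAs in YTHDF1-ADAR and YTHDF2-ADAR cells. It stood at 6.31, 4.46 and 5.05 CPM in total RNA and 0.552, 0.54 and 0.458 in polysome RNA of YTHDF1-ADAR cells. YTHDF2-ADAR cells had 3.08, 2.19 and 2.95 against 0.245, 0.277 and 0.409 CPM. YTHDF3-ADAR cells had 2.17, 0.579 and 0.439 against 0.244, 0.153 and 0.333 CPM, where total RNA library 1 was several times the other two and the fractions still did not overlap. The log2 fold changes were -3.34 ± 0.45, -3.14 ± 0.47 and -2.13 ± 0.49 (adjusted p = 0.000116, 0.000378 and 0.00641, edgeR). Without both YTHDF3-ADAR libraries numbered 1, the call in that line was lost.
U17, an H/ACA RNA that acts in cleavage of the 18S precursor, has the genes SNORA73A (overlapping SNHG3) and SNORA73B (in an intron of RCC1). SNORA73A stood at 27.3, 25.8 and 26.1 CPM against 6.08, 7.16 and 7.52 on polysomes in YTHDF1-ADAR cells. The values were 30.3, 27.02 and 27.1 against 7.61, 6.90 and 7.32 CPM in YTHDF2-ADAR cells and 29.3, 21.2 and 19.5 against 7.19, 10.1 and 9.68 CPM in YTHDF3-ADAR cells. Fractions were apart by a wide margin in every line, least in YTHDF3-ADAR cells. Log2 fold changes were -1.93 ± 0.15, -1.95 ± 0.15 and -1.37 ± 0.15 (adjusted p = 7.23e-07, 7.89e-07 and 2.32e-05, edgeR), and SNORA73B had -1.70, -1.75 and -1.28. SNORD22, a C/D RNA of the SNHG1 gene, had -0.55, -0.68 and -1.01, with only the last past the threshold (adjusted p = 0.0425, edgeR) and that not without polysome library 2 or 3 or total RNA library 1 of the line. With the replicate number as a block, all 3 passed. The U19 RNA SNORA74A had -0.47, -0.53 and -0.28 and passed in no line, or with that block in the first 2.

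Among the methylation guides, SNORD17, a guide for 28S rRNA with a gene in an intron of SNX5, was among the most depleted. Its levels were 10.1, 9.298 and 10.02 CPM in total and 1.63, 1.78 and 2.24 in polysome RNA of YTHDF1-ADAR cells. They were 15.6, 12.5 and 12.9 against 3.05, 3.89 and 3.25 CPM in YTHDF2-ADAR cells, and 8.46, 4.89 and 4.62 against 1.67, 1.19 and 1.301 CPM in YTHDF3-ADAR cells. No library of one fraction reached the other, and YTHDF2-ADAR cells had the highest levels in both fractions. Log2 fold changes were -2.38 ± 0.22, -2.01 ± 0.21 and -2.12 ± 0.22 (adjusted p = 3.3e-06, 1.75e-05 and 1.35e-05, edgeR). SNORD86, a C/D RNA within NOP56, whose protein belongs to every C/D particle, fell with -1.42, -1.28 and -1.89. SNORD32A, a guide within RPL13A for rRNA of both subunits, fell with -1.70, -1.30 and -1.94, and SNORD96A, a guide for 5.8S rRNA within RACK1, with -1.51, -1.50 and -1.75. RPL13A held 957710 counts beside 2218 for SNORD32A, and RACK1 1137218 beside 2572 for SNORD96A. The share of host RNA in the reads of these members was not tested. SNORD49B, a guide in the lncRNA gene SNHG29, fell less in 2 lines, with -0.91, -0.87 and -1.68, and its first 2 calls were lost with the replicate block (adjusted p = 0.0512 and 0.0680, edgeR) or without most single libraries of those lines.
SNORD58B, within the ribosomal protein gene RPL17, did not share the depletion. Its levels were 14.8, 11.9 and 12.8 CPM in total and 17.7, 17.2 and 17.2 in polysome RNA of YTHDF1-ADAR cells. They were 15.2, 12.8 and 12.3 against 20.3, 14.5 and 17.7 CPM in YTHDF2-ADAR cells, and 12.1, 21.7 and 21.3 against 13.1, 14.4 and 18.5 CPM in YTHDF3-ADAR cells. All polysome libraries of the YTHDF1-ADAR line were above all its total RNA libraries, whereas the fractions overlapped in the other lines. The log2 fold changes of 0.40 ± 0.19, 0.38 ± 0.19 and -0.26 ± 0.19 did not pass the test (adjusted p = 0.161, 0.207 and 0.387, edgeR), but with the replicate block the first 2 passed as higher (0.0150 and 0.0251). RPL17 reads outside SNORD58B changed by 0.21, 0.17 and -0.59, and SNORD58B had at least 1.38 times their reads per base in total RNA.

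Among the pseudouridylation guides, the SNORA71 RNAs, guides for 18S rRNA in SNHG17, were low on polysomes. SNORA71C stood at 17.01, 17.7 and 14.5 CPM in total and 2.77, 3.18 and 3.15 in polysome RNA of YTHDF1-ADAR cells. It stood at 20.4, 14.7 and 16.4 against 2.84, 3.47 and 3.15 CPM in YTHDF2-ADAR cells, and at 16.8, 11.7 and 11.5 against 2.46, 2.19 and 3.67 CPM in YTHDF3-ADAR cells. The fractions were apart in all lines. SNORA71C fell by log2 fold changes of -2.43 ± 0.20, -2.44 ± 0.20 and -2.26 ± 0.20 (adjusted p = 1.04e-06, 1.24e-06 and 2.61e-06, edgeR), and SNORA71A had -1.82, -1.81 and -1.47.
Higher on polysomes in YTHDF3-ADAR cells were SNORA74B, SNORA64, SNORA48 and SCARNA6, of which SNORA48 lies outside the rule for named genes and was chosen after its values were seen. SNORA74B, a second U19 gene, stood at 1.62, 1.297 and 1.26 CPM in total and 1.68, 2.15 and 2.49 in polysome RNA of YTHDF1-ADAR cells. The values were 1.41, 1.23 and 1.25 against 2.07, 1.81 and 1.95 CPM in YTHDF2-ADAR cells, and 1.75, 2.06 and 1.26 against 2.03, 4.31 and 4.38 CPM in YTHDF3-ADAR cells. Polysome libraries were above total RNA libraries without overlap in the first 2 lines, and in YTHDF3-ADAR cells library 1 of polysome RNA fell within the range of total RNA. The log2 fold changes were 0.60 ± 0.27, 0.58 ± 0.27 and 1.09 ± 0.26, of which the third passed (adjusted p = 0.122, 0.157 and 0.00802, edgeR). SNORA64, in RPS2, had 5.67, 4.48 and 4.28 CPM in total and 4.77, 7.596 and 11.8 in polysome RNA of YTHDF3-ADAR cells, a log2 fold change of 0.74 ± 0.26 (adjusted p = 0.0498, edgeR), against -0.29 and -0.45 in the other lines. SNORA48, in EIF4A1, had 2.57, 1.61 and 1.22 against 1.79, 5.46 and 6.95 CPM there, a log2 fold change of 1.40 ± 0.36 (adjusted p = 0.0135, edgeR). SNORA64 and SNORA48 both overlap exons of hosts with far more reads. RPS2 held 1753496 counts beside 5486 for SNORA64, and EIF4A1 754209 beside 2681 for SNORA48. The share of host RNA in the reads of these members was not tested. With the replicate block, adjusted p was 0.104 for SNORA64 and 0.110 for SNORA48, past the threshold for neither. Without YTHDF3-ADAR polysome library 2 or 3, or total RNA library 2 or 3, the calls of SNORA64, SNORA48 and SCARNA6 were lost and that of SNORA74B was not. In the fit of that line's 6 libraries alone, none of the 4 passed.

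**Figure D3:**
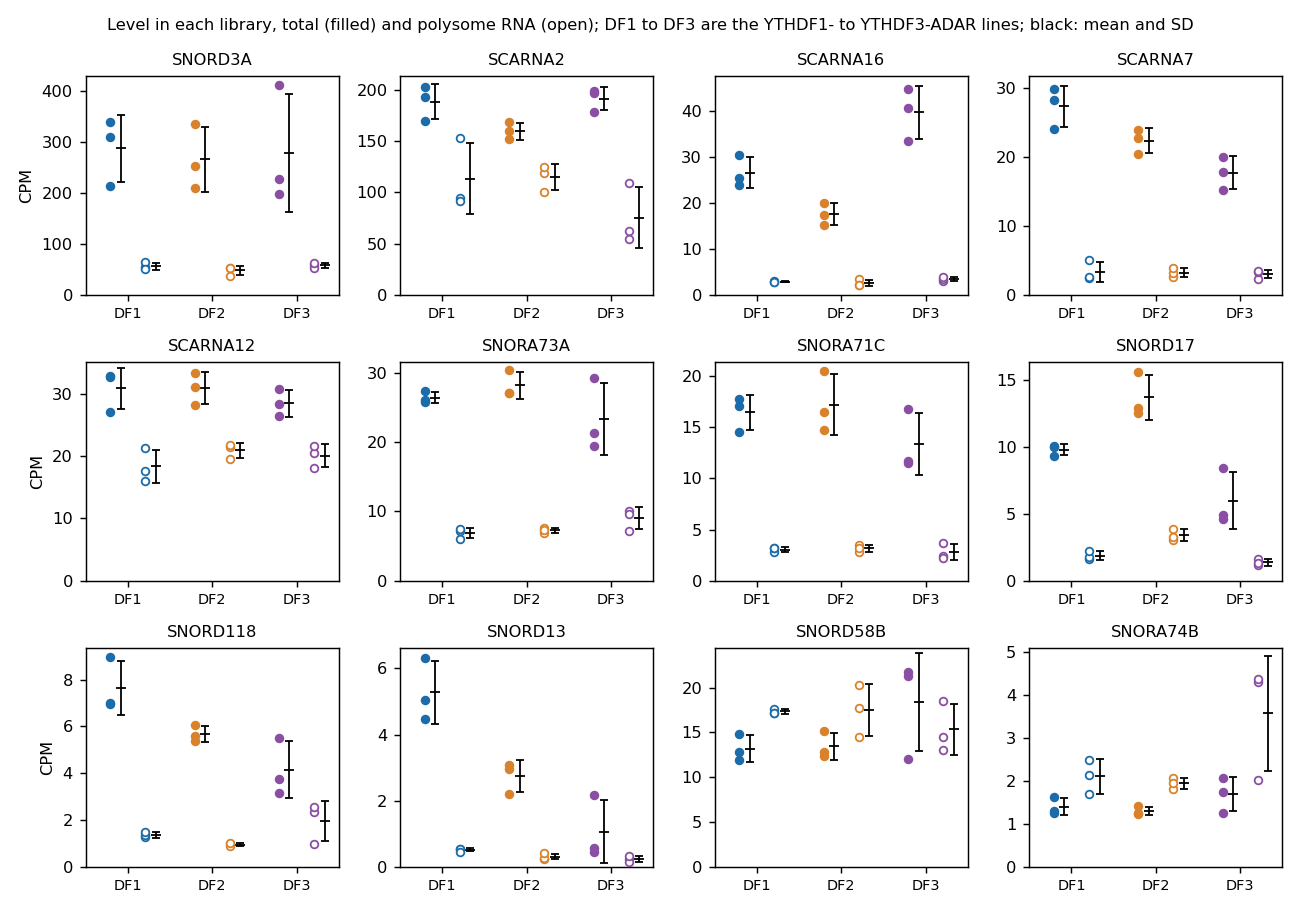
CPM of 12 members in each library, with the mean and SD (n = 3) of each group; each panel has its own axis. SNORD3A, SCARNA16, SCARNA7, SNORA73A and SNORD13 lie lower on polysomes in every line, whereas SNORD58B and SNORA74B are not.

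The Cajal body RNAs differed widely among themselves. SCARNA2, a C/D guide for U2 spliceosomal RNA (chromosome 1, 109100193 to 109100612, plus strand), stood at 193, 203 and 169.5 CPM in total and 94.6, 91.9 and 153 in polysome RNA of YTHDF1-ADAR cells. In YTHDF2-ADAR cells it stood at 159.6, 151 and 168 against 100.3, 118 and 125 CPM, and in YTHDF3-ADAR cells at 197, 199 and 178 against 109, 61.96 and 54.2 CPM. The fractions did not overlap in any line, and polysome library 3 of YTHDF1-ADAR cells came nearest to total RNA. SCARNA2 fell with log2 fold changes of -0.74 ± 0.22 in YTHDF1-ADAR and -1.35 ± 0.22 in YTHDF3-ADAR cells, while -0.48 ± 0.22 in YTHDF2-ADAR cells did not pass (adjusted p = 0.0265, 0.000718 and 0.16, edgeR). The call in YTHDF1-ADAR cells was lost without library 1 or 2 of either fraction. A lncRNA row over the same bases held 127184 counts beside the 127174 of SCARNA2, so its reads were counted under both rows.

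SCARNA16, an H/ACA RNA in the lncRNA gene SNHG20 (chromosome 17, 77089307 to 77089493, plus strand) whose 3' hairpin is printed above, had the lowest fold changes of the SCARNA genes in YTHDF1-ADAR and YTHDF3-ADAR cells. It stood at 25.3, 30.3 and 23.8 CPM in total and 2.89, 2.92 and 2.805 in polysome RNA of YTHDF1-ADAR cells. YTHDF2-ADAR cells had 20.03, 17.3 and 15.2 against 3.35, 2.203 and 2.24 CPM, and YTHDF3-ADAR cells 44.8, 40.6 and 33.3 against 2.904, 3.42 and 3.903 CPM. Polysome levels of all 3 lines lay between 2.203 and 3.903 CPM, while total RNA levels differed, lowest in YTHDF2-ADAR and highest in YTHDF3-ADAR cells. It fell 9.22, 6.74 and 11.6-fold, or -3.20 ± 0.18, -2.75 ± 0.18 and -3.53 ± 0.18 on the log2 scale (adjusted p = 6.98e-09, 5.73e-08 and 1.91e-09, edgeR). SNHG20 reads outside SCARNA16 changed by -0.73, -0.67 and -0.96, and SCARNA16 had at least 32.8 times their reads per base. SCARNA7, a C/D guide in an intron of KPNA4, fell with -3.04, -2.80 and -2.54 (adjusted p = 8.33e-07, 2.17e-06 and 5.95e-06, edgeR), while KPNA4 reads changed by 0.43, 0.26 and 0.53.

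SCARNA12, a guide for U5 RNA with C/D and H/ACA domains, within PHB2, fell modestly. Its levels were 32.8, 32.8 and 27.05 CPM in total and 17.7, 16.1 and 21.3 in polysome RNA of YTHDF1-ADAR cells. The fractions did not overlap there, and the log2 fold changes were -0.75 ± 0.12, -0.56 ± 0.12 and -0.50 ± 0.12 (adjusted p = 0.000491, 0.00492 and 0.00758, edgeR). SCARNA17, a C/D guide for U12 and U4 RNA, fell with -1.50, -1.41 and -1.11. SCARNA10 (-0.28, -0.23 and -0.30), a U5 guide with domains of both classes, SCARNA13 (-0.21, -0.11 and 0.07), an H/ACA guide, and SCARNA1 (-0.78, -1.02 and 0.16), a U2 guide, passed in no line. SCARNA21 (-0.31, -0.22 and 0.45) did so only as higher in the YTHDF3-ADAR line, and then with the replicate block (adjusted p = 0.0496). SCARNA5 and SCARNA6, both guides for U5 RNA in introns of ATG16L1, parted in YTHDF3-ADAR cells. SCARNA5 had 5.83, 9.43 and 7.81 CPM in total and 4.001, 2.598 and 1.95 in polysome RNA there, and SCARNA6 had 5.18, 5.14 and 4.58 against 5.59, 9.002 and 7.43. SCARNA5 lay lower and SCARNA6 higher on polysomes, both without overlap. The log2 fold changes were -1.44 ± 0.28 (adjusted p = 0.00243, edgeR) and 0.56 ± 0.17 (adjusted p = 0.0287, edgeR), and the call of SCARNA6 was lost without library 2 or 3 of either fraction.

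How members compared with the genes that contain them was described for 85 members in 59 hosts, from host reads outside the members. Members lay below their hosts in log2 fold change 75, 71 and 56 times, and the hosts' medians were 0.06, 0.00 and -0.43. The 12 SNORD members in ribosomal protein genes had medians of -1.38, -1.25 and -1.73, and their hosts 0.11, 0.14 and -0.68. The 9 SNORA members in such genes had -1.21, -1.08 and -0.29, with hosts at 0.17, 0.07 and -0.67. Of the 12 SNORD members 11, 11 and 9 lay below their host, and of the 9 SNORA members 7, 7 and 3. The 8 SNORD members in SNHG genes, noncoding genes known mainly as snoRNA hosts, had -0.75, -0.78 and -1.56 with hosts at -0.57, -0.64 and -1.39. Of these 8 members 8, 7 and 6 lay below their host. The 10 SNORA members in SNHG genes had -1.62, -1.62 and -1.22 with hosts at -0.89, -0.85 and -0.97, and 8, 7 and 3 of the 10 lay below their host. Reads of a member can include unspliced or exonic host RNA where exons overlap, and this share was not tested. In total RNA the median ratio of reads per base, member to host, was 0.725 over all 85 members, as a lower bound. It was 0.0974 for the 12 SNORD and 0.0551 for the 9 SNORA members in ribosomal protein genes. By this ratio, 35 of the 59 members overlapping host exons and 14 of the 26 in host introns were less dense than their host. SNORA10 in RPS2 had 0.0181 times the reads per base of its host in total RNA, as a lower bound. Its log2 fold changes were -0.27, -0.67 and 0.78, and it passed in no line.

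**Figure D4:**
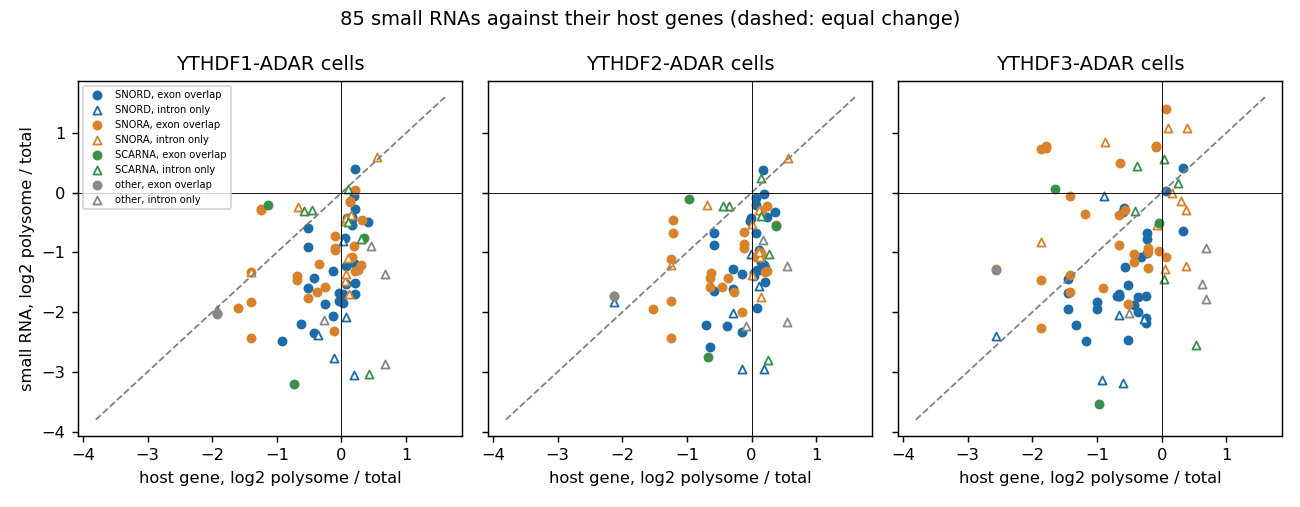
Log2 fold change of polysome against total RNA of 85 members (vertical axis) against that of host reads outside the member (horizontal axis), 1 panel per line; the diagonal marks equal change. Most points lie below the diagonal, 75, 71 and 56 of 85 in the 3 lines.

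The difference in polysome change between lines was tested as an interaction. No member passed in any of the 3 comparisons (edgeR, Benjamini-Hochberg over all genes), and 0% of all genes did. Without adjustment, p was under 0.05 for 0 members between YTHDF2-ADAR and YTHDF1-ADAR, 16 between YTHDF3-ADAR and YTHDF1-ADAR and 23 between YTHDF3-ADAR and YTHDF2-ADAR, and DESeq2 called 0 in each. SNORA84 (chromosome 9, 92292461 to 92292593, minus strand, in an intron of IARS1), whose hairpin is printed above, differed most. It stood at 1.77, 1.23 and 2.09 CPM in total and 0.552, 0.618 and 0.807 in polysome RNA of YTHDF1-ADAR cells and 2.01, 1.805 and 1.89 against 0.631, 0.858 and 1.21 in those of YTHDF2-ADAR cells. In YTHDF3-ADAR cells it stood at 1.33, 1.11 and 1.28 against 0.751, 2.54 and 4.57 CPM. Polysome RNA was lower without overlap in the first 2 lines, whereas in YTHDF3-ADAR cells library 1 was below and libraries 2 and 3 above total RNA. Its log2 fold changes were -1.37 ± 0.44, -1.08 ± 0.43 and 1.08 ± 0.42, of which only the first passed (adjusted p = 0.0384, 0.106 and 0.0811, edgeR). That call was lost with the replicate block (adjusted p = 0.0568, edgeR) and without any 1 library of the line other than total RNA library 2. The difference of 2.45 ± 0.61 between YTHDF3-ADAR and YTHDF1-ADAR cells had an adjusted p of 1 (edgeR). U8 differed by 1.41 ± 0.37 in the same direction (adjusted p = 1, edgeR).

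These interactions depended on the libraries numbered 1 of YTHDF3-ADAR cells. With both left out, a choice made after seeing the data, 20 members had a higher polysome change in YTHDF3-ADAR than in YTHDF1-ADAR cells and 0 a lower one, 16 of the 20 being SNORA and 4 SNORD. Among all genes in that fit, 0.319% were higher and 0.652% lower. Against YTHDF2-ADAR cells, 19 members were higher and 2 lower (SNORD86 and SCARNA2), beside 0.45% and 0.604% of all genes. In this fit SNORA84 differed from YTHDF1-ADAR cells by 2.97 (adjusted p = 0.00200, edgeR) and SNORD118 by 2.02 (adjusted p = 0.000914, edgeR). Leaving out only the polysome library gave 4 and 5 members, and leaving out only the total RNA library gave 0 and 0. Within YTHDF3-ADAR cells the same fit called 59 members lower and 16 higher, 10 of the 16 being SNORA, beside 13.6% and 16.3% of all genes, and the medians were -1.83 for SNORD, -0.36 for SNORA and -0.45 for SCARNA. By same-numbered pairs of libraries 1, 2 and 3 in YTHDF3-ADAR cells, the median log2 ratio of polysome to total RNA was -1.31, -0.59 and -0.21 for SNORA and -1.63, -2.01 and -1.59 for SNORD. The gap between the classes in this line was thus narrow in pair 1 and wide in the others.

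**Figure D5:**
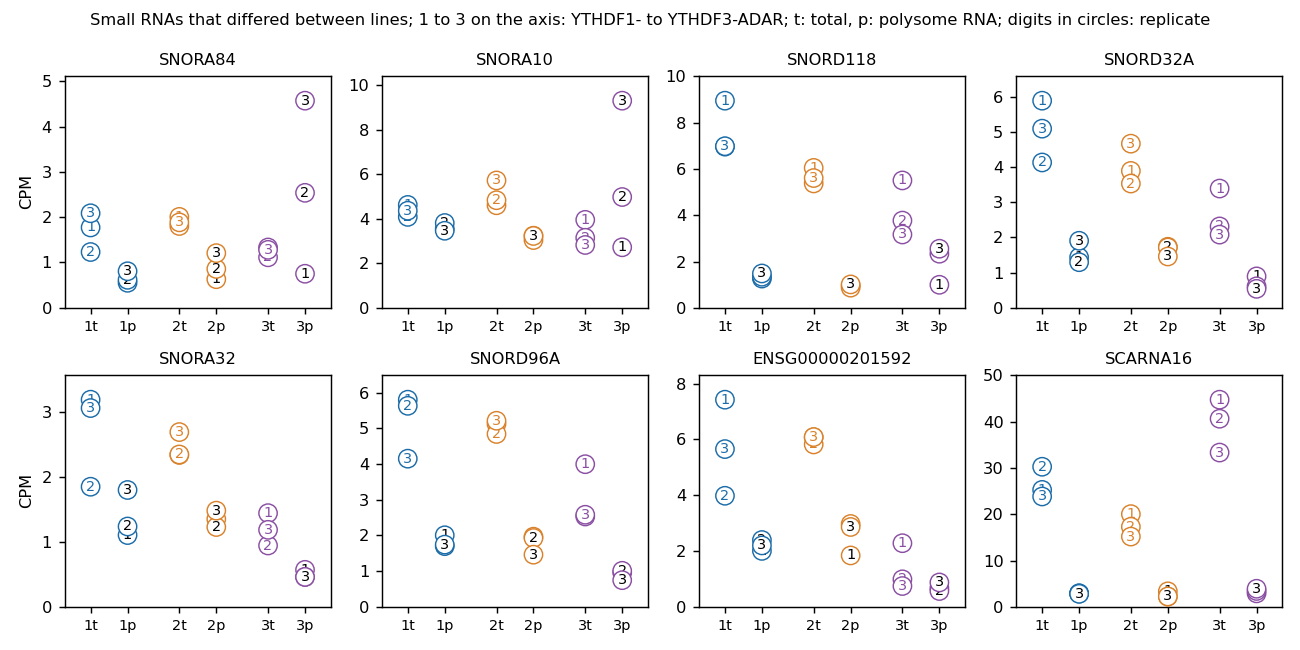
CPM of 8 members in every library of the 3 lines, total and polysome RNA, with digits marking the library number. SNORA84 lies above total RNA only in polysome libraries 2 and 3 of YTHDF3-ADAR cells, and ENSG00000201592 and SNORD118 are low in total RNA of that line.

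Levels in total RNA were compared between lines. Between YTHDF2-ADAR and YTHDF1-ADAR cells no member passed (edgeR), with 6 at an unadjusted p under 0.05 and 1 called by DESeq2, beside 1.83% of all genes called. In YTHDF3-ADAR against YTHDF1-ADAR cells, 16 members were lower and 1 higher, beside 6.52% and 11.6% of all genes. Against YTHDF2-ADAR cells, 16 were lower and 1 higher, beside 7.57% and 15.2%. These comparisons share the YTHDF3-ADAR libraries. Fits of only the compared libraries called 0 members against YTHDF1-ADAR cells, where 0.558% of all genes were lower and 0.855% higher, and 4 against YTHDF2-ADAR cells, beside 1.35% and 4.7%. The marker COL3A1, of connective tissue cells, moved with this line, at 0.998 CPM in its total RNA against 0.165 and 0.162 in the others (log2 fold changes of 2.57 and 2.63, adjusted p = 0.00976 and 0.00682, edgeR), and its part in the result was not tested. By class, 6 and 4 SNORD, 5 and 7 SNORA, 1 and 1 SCARNA and 4 and 4 other members were lower. The single higher member was SCARNA16, by 0.58 ± 0.16 against YTHDF1-ADAR (adjusted p = 0.0227, edgeR) and 1.18 ± 0.16 against YTHDF2-ADAR cells (adjusted p = 0.000252, edgeR), the former lost without YTHDF1-ADAR library 1 or 3 or YTHDF3-ADAR library 2.

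The 2 unnamed rows of 80 and 70-base snoRNAs in introns of the translation factor gene EIF1AX were among those that fell most. ENSG00000201592 stood at 7.42, 3.98 and 5.65 CPM in YTHDF1-ADAR, 6.08, 5.82 and 6.08 in YTHDF2-ADAR and 2.28, 0.986 and 0.745 in YTHDF3-ADAR total RNA. All YTHDF3-ADAR libraries lay below those of the other lines, library 1 nearest to them. The log2 fold change of YTHDF3-ADAR against YTHDF1-ADAR was -2.08 ± 0.33 (adjusted p = 0.000942, edgeR) and against YTHDF2-ADAR -2.16 ± 0.33 (adjusted p = 0.000532, edgeR), and ENSG00000201882 had -2.15 and -2.00. U13 fell too, by -2.30 ± 0.43 (adjusted p = 0.00246, edgeR) against YTHDF1-ADAR and -1.35 ± 0.42 (adjusted p = 0.0311, edgeR) against YTHDF2-ADAR cells, the latter lost without any 1 of the YTHDF2-ADAR libraries or YTHDF3-ADAR library 2 or 3. U8 had -0.88, SNORD96A -0.77, SNORD32A -0.95 and SNORA32, a guide within TAF1D, -1.17 against YTHDF1-ADAR cells, all past the threshold there. Without YTHDF3-ADAR library 2 or 3 the calls of U8, SNORD96A and SNORD32A were lost, and so were those of U8 without any YTHDF1-ADAR library and of SNORD96A without its library 1 or 2. Leaving out 1 library at a time moved the 17 calls against YTHDF1-ADAR to between 7 and 55, and those against YTHDF2-ADAR to between 6 and 53. The highest counts came without YTHDF3-ADAR total RNA library 1, when 51 members were lower against YTHDF1-ADAR cells, beside 16.8% of all genes. Against YTHDF2-ADAR cells 48 were lower then, beside 19.3%. Without YTHDF1-ADAR total RNA library 1, 9 members were called against that line, all lower, beside 3.89% of all genes lower and 6.82% higher. Without YTHDF2-ADAR total RNA library 1, 11 were called against that line, beside 5.42% and 11.6%. No batch is given in the labels, so a batch and the line cannot be told apart.

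Levels in polysome RNA were compared between lines in the same way. YTHDF2-ADAR against YTHDF1-ADAR cells gave 1 call, SNORD17 as higher by 0.86 ± 0.21 (adjusted p = 0.0446, edgeR), beside 0.761% of all genes higher, 1.59% lower and 2.35% in either direction, and no call remained without any 1 library of either group. YTHDF3-ADAR against YTHDF1-ADAR cells gave 21 lower members, of which 14 were SNORD, 4 SNORA, 1 SCARNA and 2 other, and 6 higher, all SNORA. Among all genes 11.4% were lower and 11.9% higher. Against YTHDF2-ADAR cells 20 members were lower, 13 of them SNORD and 4 SNORA, and 9 higher, 8 of them SNORA and the other SNORD118, beside 11.5% and 13.6% of all genes. SNORA84 was higher by 2.00 ± 0.44 against YTHDF1-ADAR cells (adjusted p = 0.00524, edgeR). Without 1 library the counts ran from 9 to 53 and from 9 to 52, the highest without YTHDF3-ADAR polysome library 1. In the fits without that library, 19.8% of all genes were lower and 19.9% higher against YTHDF1-ADAR cells. Against YTHDF2-ADAR cells the shares were 20.4% and 21.2%. Fits of only the compared libraries left 6 and 7 calls, where 3.45% and 2.97% of all genes were lower and 5.58% and 8.07% higher. COL3A1 was higher in this fraction too, by 2.53 and 2.02 on the log2 scale (adjusted p = 0.00847 and 0.0194, edgeR), and its part in the result was not tested.

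Other small nuclear RNAs gave a measure for the members' depletion. Rows typed snRNA with at least 1000 counts (41 rows) had median log2 fold changes of -2.33, -2.60 and -1.63 on polysomes, mitochondrial tRNAs (22) -2.50, -2.12 and -2.09, and lncRNAs -0.01, -0.01 and -0.10. Protein-coding genes had 0.16, 0.15 and 0.07. The members' medians of about -1.3 thus lay between snRNAs and lncRNAs. Of 6 RNAs listed as markers of the nucleus, 4, 4 and 3 were lower, beside 11.9%, 9.04% and 12.1% of all genes. MALAT1, among these 6, had -0.70, -0.75 and -0.70, and the 7SK RNA, given next, is also among them. Among H/ACA and related RNAs outside the rule, the telomerase RNA TERC had -2.81, -2.62 and -2.84, the RNase P RNA RPPH1 -4.22, -4.12 and -3.87 and the 7SK RNA -5.12, -5.07 and -4.75. RMRP, the RNase MRP RNA, fell less, with -0.44 and -0.48 in the first 2 lines, and its -0.31 in YTHDF3-ADAR cells did not pass.

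The mRNAs of 39 proteins that make, carry or bind snoRNAs were all tested. On polysomes 3, 3 and 1 of them were higher and 2, 0 and 1 lower, beside the shares of all genes (9.26%, 6.71% and 8.01% higher, 11.9%, 9.04% and 12.1% lower). SNU13, which binds the C/D motif, rose by 0.40 and 0.42 in the first 2 lines, and NHP2 of the H/ACA particle by 0.51 and 0.51. NOP56 of the C/D particle fell by 0.49 in YTHDF1-ADAR and YTHDF3-ADAR cells. In total RNA of YTHDF3-ADAR against YTHDF1-ADAR cells, 7 were lower and 3 higher, beside 6.52% and 11.6% of all genes. There GAR1 of the H/ACA particle had -1.08 and TGS1, which trimethylates the U3 cap, -0.90. Against YTHDF2-ADAR cells 11 were lower and 2 higher, beside 7.57% and 15.2%. In fits of only the compared libraries, 0.558% of all genes were lower and 0.855% higher against YTHDF1-ADAR cells, and these mRNAs were not counted in those fits.

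Editing by the fusions was taken from the authors' deposited tables of edited genes, which list 6858 genes for YTHDF1-ADAR, 4547 for YTHDF2-ADAR and 7042 for YTHDF3-ADAR. In these authors' deposited tables no member was listed, nor any other snoRNA or scaRNA row. Of the 59 host genes, 17, 16 and 25 were listed in the authors' deposited tables, with 151, 132 and 228 sites. These were 28.8%, 27.1% and 42.4% of the hosts, beside 6858, 4547 and 7042 genes listed in all, where 26804 genes passed the filter here. Whether hosts were listed more often than other genes was not tested. CHD3, the host of SCARNA21, had 68, 72 and 76 sites in the authors' deposited tables, and NOP56, the host of SNORD86, 15, 14 and 16. The coverage behind these listings is unknown, so a row not listed is not shown to be unedited.

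In the authors' deposited table of fold changes, whose contrast is not named, the 95 members had a median log2 fold change of -1.34 and 91 were negative. Each value in the authors' deposited table was within 0.0146 of the polysome change computed here for YTHDF1-ADAR cells.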

How the data were processed

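Total and polysome RNA of 3 HEK293T lines was sequenced in 18 libraries, 3 in each of 6 groups. The deposited count table holds unnormalised read counts per gene. The deposited table of fold changes holds a signal (mean normalised count) and a log2 fold change per gene. The authors' editing tables list edited genes with their numbers of sites. Per the submitters' processing notes, STAR 2.7.7, featureCounts 2.0.1 and DESeq2 were used with GRCh38 (hg38). Not given in the sources used here are the strand setting, the version of DESeq2 and the annotation release, so sense and antisense reads cannot be told apart. A read was counted in every row it overlapped. A withheld item is not reported here.

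Tests were run with edgeR 4.0.16 and limma 3.58.1 under R 4.3.3. Of 60675 human rows, 26804 passed filterByExpr with a minimum count of 10, and 1 row that names no human gene was left out. Libraries were scaled by TMM, and a robust quasi-likelihood fit held the 6 group means. Calls are Benjamini-Hochberg adjusted p under 0.05 over all genes tested. Each SE is the size of the log2 fold change over the square root of its F. Fold changes in times are ratios of mean CPM. Read counts carry no molecular identifiers, so errors cover the libraries compared only, and the number of libraries limits the precision.

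Members and lists were chosen with earlier results of these data known. Named are all SCARNA members, the 6 SNORD and 6 SNORA of highest counts, the 4 lowest and 4 highest mean changes in each where the mean log2 CPM reached 2, up to 5 called members per comparison of lines, the processing snoRNAs and those at the threshold. Hosts are genes overlapping a member with at least 20% of their reads outside members. Bases shared with members were subtracted from a host's length once per annotated exon, also where exons repeat. Reads per base of such hosts are therefore overstated, and ratios of members to hosts are lower bounds. Ratios of library pairs used a pseudocount of 0.05 CPM. The fit was tested on simulated data. Alternatives were DESeq2 1.42.0, its size factors, no scaling factors, no filter, a threshold of 10000 counts, fits of the compared libraries only, the replicate number as a block, and each library left out.

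Same-numbered total and polysome libraries of a line deviated together in all 9 pairs (r from 0.200 to 0.671 over genes), so blocked values are given where they change a call, although some pairs of different number were as close. Across lines r ran from -0.36 to 0.51, and the numbers do not pair libraries there. Within a group no library was a duplicate of another, the smallest chi-square per df being 6.955. Libraries of different groups were not compared in this way.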

Additional observations from a re-analysis of the deposited data

How the results depend on the processing

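Counts of members are given in the order YTHDF1-ADAR, YTHDF2-ADAR, YTHDF3-ADAR, and the cause of a move was not tested except where fewer members or libraries make it. With DESeq2, calls in total RNA were 1 (YTHDF2-ADAR against YTHDF1-ADAR, 0 above) and 26 (YTHDF3-ADAR against YTHDF1-ADAR, 17 above), and class medians were not computed. With DESeq2 size factors, polysome RNA of YTHDF2-ADAR against YTHDF1-ADAR gave 0 calls and the SCARNA median in YTHDF3-ADAR cells was -0.46, and with no filter it was -0.43. The 16 members with at least 10000 counts gave 13, 12 and 13 lower and 0 higher in YTHDF3-ADAR cells, 1 and 1 calls for YTHDF3-ADAR in total RNA, 0, 0 and 0 in polysome RNA, and medians of -2.35, -2.45 and -2.40 (SNORD), -1.82, -1.85 and -1.33 (SNORA) and -0.93 (SCARNA, YTHDF3-ADAR). With no scaling factors, 3, 3 and 10 members were higher, YTHDF3-ADAR against YTHDF2-ADAR gave 10 calls in total RNA, polysome RNA of YTHDF2-ADAR against YTHDF1-ADAR gave 0, and medians were -1.26, -1.02 and -1.57 (SNORD), -0.77 and -0.72 (SNORA, first 2 lines) and -0.31, -0.12 and -0.20 (SCARNA). Of all genes, 40.6%, 33.9% and 25.3% were higher on polysomes in that setting. In that total RNA comparison 2.08% of all genes were lower and 24.6% higher. The 36 members that overlap no exon of a host gene, a choice made after seeing the data, gave 25, 24 and 23 lower, 2 higher in YTHDF3-ADAR cells, and medians of -2.38, -2.47 and -2.40 (SNORD), -0.78 (SNORA, YTHDF1-ADAR) and -0.70 (SCARNA, YTHDF3-ADAR). Fits of the compared libraries only gave 1 and 1 higher in the first 2 lines, 18 lower and 0 higher in YTHDF3-ADAR cells, 3, 0 and 4 calls in total RNA and 3, 6 and 7 in polysome RNA. With the replicate block across lines, where numbers do not pair, calls were 4, 0 and 0 in total RNA and 2, 6 and 5 in polysome RNA. With the replicate block within a line, 1 and 1 members were higher in the first 2 lines, and the block lost 5, 3 and 2 polysome calls and added 7, 6 and 4; it changed no other call of a named member than those given above and SNORA59B, which it added as lower in YTHDF3-ADAR cells. Without both YTHDF3-ADAR libraries numbered 1, 16 members were higher in that line, 20 and 21 interactions passed, calls were 69 and 63 in total and 60 and 55 in polysome RNA, and the SCARNA median was -0.45. In that fit 24.2% and 26.1% of all genes were higher and 22% and 24.2% lower in total RNA. In polysome RNA 24.5% and 25.8% of all genes were higher and 23.1% and 23.3% lower. Leaving out 1 library at a time gave 55 to 64, 53 to 58 and 56 to 66 members lower, 0 to 0, 0 to 0 and 1 to 12 higher, 0 to 0, 0 to 4 and 0 to 5 interactions, 0 to 0, 7 to 55 and 6 to 53 calls in total RNA, and 0 to 0, 9 to 53 and 9 to 52 in polysome RNA. Medians ran from -1.72 to -1.63, -1.44 to -1.35 and -2.20 to -1.57 (SNORD), from -1.22 to -1.12, -1.15 to -1.02 and -0.81 to -0.45 (SNORA), and from -0.85 to -0.54, -0.54 to -0.39 and -0.56 to -0.43 (SCARNA).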
